A study of Mus musculus with 3 samples.

Results

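A set of 8 mediators of inflammation and growth was followed through RNA sequencing of LSK cells (lineage-negative, Sca1+, c-Kit+), marrow cells sorted to enrich for stem cells and early progenitors of blood. They are *Hgf*, *Ptgs2*, *Csf1*, *Tnf*, *Il1b*, *Ccl3*, *Ccl4* and *Cxcl2*, and their rows were found by gene symbol, so that 8 of the 36172 genes of the deposited table are described here. All 8 had reads in at least 1 library, as had 14145 genes in all. The genes were chosen on their levels in these same libraries, so their levels and ratios are given as a description and support nothing further.

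There were 3 libraries, 1 per genotype: *Calr* WT/WT (WT), *Calr* ins2/WT (ins2) and *Calr* del10/WT (del10). The heterozygous knock-in mice were C57BL/6 mice in which CRISPR-Cas9 had placed a frameshift in *Calr*, the gene of the chaperone calreticulin, and the knock-in allele is carried by every cell of the animal rather than by blood cells alone. No treatment is named for any of the groups. Each library was made from 5 ng of total RNA from an aliquot of the cells of 4 males, 3 months of age. With 1 library per genotype, no difference below could be checked against replicates, and neither p-values nor SDs are given. Both comparisons with WT rest on the same WT library.

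The mediators act at different steps. HGF, tumor necrosis factor, interleukin 1 beta, CSF1 and the chemokines CCL3, CCL4 and CXCL2 are proteins that cells release and that act through receptors on other cells. PTGS2 (cyclooxygenase 2) is itself an enzyme inside the cell, and the lipids made from its product, the prostaglandins, are what is released. Many of these genes are induced within hours in myeloid cells by microbial products through the transcription factor NF-kappaB, and CCL3 is also known as a product of basophils. Of the gene annotation terms in the deposited table, extracellular space was given to 7 of the 8 genes, all but *Ptgs2*, and inflammatory response to 7, all but *Hgf*.

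Levels of 7 of the 8 mediators were over 2-fold higher in del10 than in WT, and levels of the same 7 were over 2-fold higher in ins2 than in WT, while *Tnf* was highest in WT. Of all 14145 genes with reads, 30.2% were over 2-fold higher than in WT in del10 and 28.7% in ins2, and because the 8 genes were chosen on these levels, their count is not read against those shares. Intervals for *Il1b*, for *Tnf* and, in ins2, for *Cxcl2* included 1. *Hgf* and *Ptgs2* were listed at 0 in WT and had 1116 to 1692 normalized counts in the knock-in libraries. *Csf1* was 4.85-fold higher in del10 than in WT, *Ccl3* 10.1-fold and *Ccl4* 4.39-fold. A normalized count here is the number of reads scaled by the library factor of the authors' trimmed mean of M-values (TMM) normalization. Between both knock-in libraries the mediators differed less, and *Csf1*, *Ccl4* and *Cxcl2* were the members whose interval for the ratio of del10 to ins2 left out 1.

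The precision differs between the libraries. The totals of gene counts were close (9823095, 10967622 and 11111698 reads in WT, ins2 and del10), but the commonest low read count of a gene was 61 in WT, 21 in ins2 and 16 in del10. That count was taken as the reads that come from 1 starting fragment of RNA, so that 1 fragment equals 67.1 normalized counts in WT, against 20.7 in ins2 and 16.3 in del10. Intervals below are 95% exact intervals (Poisson for a level, binomial for a ratio) on these estimated fragments unless reads are named, and they cover counting error only. A gene at 0 in WT has an upper limit of 247 normalized counts on fragments and of 4.06 on reads. The numbers of genes with reads were 11037, 12796 and 13066, and the ribosomal RNA precursor *Rn45s* took at most 16.7% of the reads of a library.

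The cells' identity was checked on 10 LSK markers. *Kit* (c-Kit) had 286, 3082 and 4177 normalized counts in WT, ins2 and del10, and *Ly6a* (Sca-1) had 145, 120 and 51.9, so that both genes behind the sort were detected in each library. Some of these levels rest on few fragments. At 61 reads per fragment in WT, *Kit* had 260 reads there and *Ly6a* had 132. At 16 reads per fragment in del10, *Ly6a* had 51 reads. *Cd34*, *Procr* and *Mecom* were among the markers at 0 in WT. Over 2-fold higher levels than in WT were seen for 7 of the 10 in del10 and for 6 in ins2, beside 30.2% and 28.7% of all genes with reads. The summed level of the list was 1237 in WT, against 7166 in ins2 and 9996 in del10. The WT library thus had the lowest sum of the markers of its labelled cells, although *Ly6a* had its highest level there, on few fragments. In bulk samples, fewer cells of a type and less RNA per cell cannot be told apart, and this holds for every level below.

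In the mm10 coordinates of the deposited table, *Ptgs2* lies on chromosome 1 (150100124 to 150108012), *Il1b* on chromosome 2 (129364580 to 129371120), *Csf1* on chromosome 3 (107741048 to 107760469) and *Tnf* on chromosome 17 (35199391 to 35201996). *Hgf* (16553550 to 16619439) and *Cxcl2* (90903899 to 90905938) lie apart on chromosome 5. *Ccl3* (83647843 to 83649378) and *Ccl4* (83662584 to 83664683) are neighbours on chromosome 11. *Il1b* overlaps the gene model Gm14047, and no other member overlaps a gene of the table. Reads in the overlap cannot be assigned to either gene with certainty, since the sources used here do not say whether the counting used strand.

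Promoter sequence was read for 7 of the 8 genes from RefSeq (GRCm38.p6) as up to 250 bases before the gene's start, without bases that an annotated exon covers. *Ccl4* had no entry. The kappaB motif, the site that NF-kappaB binds, was searched on both strands, together with AP-1 (TGANTCA), C/EBP (TTGCNNAA), the TATA box (TATAAA) and the E-box (CACGTG). The promoters of *Csf1*, *Cxcl2*, *Tnf*, *Ptgs2* and *Ccl3* are shown because they set the genes with a kappaB match beside a gene with another match and 1 of the strongly differing genes with none. Each runs 5′ to 3′ on the gene's strand, with the motif matches in capitals.
Csf1 (chr3:107760470-107760719, minus strand): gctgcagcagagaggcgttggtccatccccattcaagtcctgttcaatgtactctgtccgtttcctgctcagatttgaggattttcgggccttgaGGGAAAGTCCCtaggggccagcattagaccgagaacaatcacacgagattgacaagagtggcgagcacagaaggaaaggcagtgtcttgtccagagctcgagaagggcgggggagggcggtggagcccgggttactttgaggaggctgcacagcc
Cxcl2 (chr5:90903649-90903870, plus strand): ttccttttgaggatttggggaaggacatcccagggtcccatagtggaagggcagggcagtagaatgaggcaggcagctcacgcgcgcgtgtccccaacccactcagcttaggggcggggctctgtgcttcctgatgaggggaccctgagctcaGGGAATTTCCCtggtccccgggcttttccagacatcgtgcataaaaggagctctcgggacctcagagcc
Tnf (chr17:35202008-35202257, minus strand): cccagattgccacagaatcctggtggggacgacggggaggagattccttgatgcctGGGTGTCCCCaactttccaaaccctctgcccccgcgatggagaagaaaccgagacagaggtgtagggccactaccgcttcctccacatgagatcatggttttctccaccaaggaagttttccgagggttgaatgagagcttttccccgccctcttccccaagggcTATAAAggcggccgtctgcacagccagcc
Ptgs2 (chr1:150099818-150100030, plus strand): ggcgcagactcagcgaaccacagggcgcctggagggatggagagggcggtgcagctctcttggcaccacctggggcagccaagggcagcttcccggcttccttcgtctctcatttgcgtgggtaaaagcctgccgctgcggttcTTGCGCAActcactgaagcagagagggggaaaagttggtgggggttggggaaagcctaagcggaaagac
Ccl3 (chr11:83649379-83649628, minus strand): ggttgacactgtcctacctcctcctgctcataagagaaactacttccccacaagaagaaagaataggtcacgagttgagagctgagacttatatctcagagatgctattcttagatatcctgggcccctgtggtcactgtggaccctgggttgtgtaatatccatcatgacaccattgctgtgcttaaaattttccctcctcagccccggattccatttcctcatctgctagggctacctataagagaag
A kappaB match was found in *Csf1* (bases -155 to -146 from the start, with an overlapping match on the other strand), in *Cxcl2* (bases -97 to -88, likewise with an overlapping match) and in *Tnf* (bases -194 to -185, on the other strand). Of 32851 mouse promoters of this length, 13.8% hold such a match. *Ptgs2* had a C/EBP match (bases -69 to -62), found in 9.56% of promoters. *Tnf* (bases -29 to -24) and *Il1b* (bases -31 to -26) had a TATA box, found in 12.4%. None of the 7 held AP-1 (6.75% of promoters) or the E-box (6.02%), and *Hgf* and *Ccl3* held no match to any of the 5 motifs. A match of letters is a description and not a binding site. Among the 3 genes with a kappaB match, *Csf1* and *Cxcl2* were highest in del10 and *Tnf* was highest in WT. The order of *Tnf* was not resolved, since it rests on few fragments and each of its ratio intervals includes 1. Whether the 3 genes share a pattern of levels can therefore not be said.

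*Hgf* encodes hepatocyte growth factor, a ligand that drives growth and migration of epithelial and endothelial cells through the receptor MET. Its level was 0 in WT, 1506 normalized counts in ins2 and 1692 in del10, or 0, 73 and 104 estimated fragments. Both knock-in libraries had it at a similar level and WT had no read. Against a floor of 3 reads in WT, *Hgf* was at least 456-fold higher in ins2 and at least 513-fold higher in del10. Because 3 reads are less than 1 estimated fragment of the WT library, the interval on fragments is much wider and starts at 5.94-fold for ins2 and at 6.73-fold for del10. The ratio of del10 to ins2 was 1.12 (0.825 to 1.54).

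*Ptgs2* encodes the inducible cyclooxygenase, which converts arachidonic acid to the precursor of all prostaglandins. It had 0 normalized counts in WT, against 1116 in ins2 and 1441 in del10, from 0, 54 and 88 fragments. As for *Hgf*, the WT library was the only one without reads. It was at least 338-fold higher in ins2 and at least 437-fold higher in del10 on the floor of 3 reads, and on fragments the interval starts at 4.36-fold and 5.68-fold. The ratio of del10 to ins2 was 1.29 (0.906 to 1.84). Of the 14145 genes with reads, 3108 (22.0%) were at 0 in WT. The main set holds the 7073 genes with a mean over the libraries of 215.3 normalized counts or more. Of these, 51 (0.721%) were at 0 in WT, *Hgf* and *Ptgs2* among them. A gene at 0 in WT can enter that set only through its knock-in levels, and both genes were chosen on such levels. Nothing is therefore read from the small share.

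*Csf1* encodes the colony-stimulating factor that macrophages and their precursors need to survive and divide. It had reads in every library: 1588 normalized counts in WT (interval 1031 to 2395), 4250 in ins2 (3696 to 4880) and 7704 in del10 (7029 to 8435). The levels rank WT, ins2, del10, and no 2 of the 3 intervals overlap. The ratio to WT was 2.68 in ins2 (1.73 to 4.22) and 4.85 in del10 (3.18 to 7.55), and the ratio of del10 to ins2 was 1.81 (1.53 to 2.14). *Csf1* was the only member for which each of the 3 ratios had an interval above 1.

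**Figure D1:**
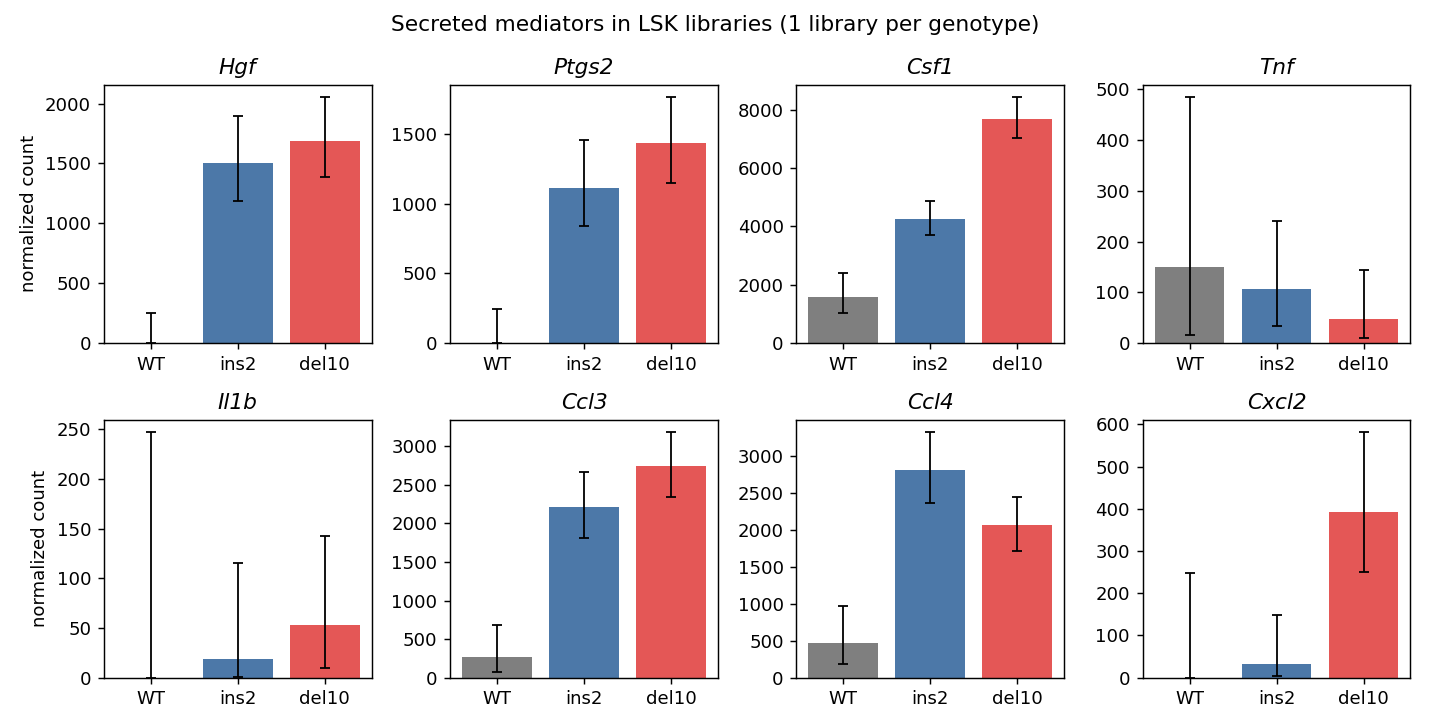
Normalized counts (vertical axes, starting at 0 and scaled per gene) of the 8 mediators in the WT, ins2 and del10 libraries, 1 library per genotype. Bars are levels and error bars are 95% exact Poisson intervals on estimated fragments, which cover counting error only. *Hgf* and *Ptgs2* have no bar in WT and bars of 1116 to 1692 in both knock-in libraries, and *Tnf* has its tallest bar in WT with overlapping intervals.

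*Ccl3* and *Ccl4* encode the macrophage inflammatory proteins 1 alpha and 1 beta, chemokines that attract monocytes and lymphocytes. *Ccl3* had 270 normalized counts in WT, against 2213 in ins2 and 2744 in del10, and WT was the low library, with 4 fragments against 107 and 168. *Ccl4* had 470 in WT, 2804 in ins2 and 2059 in del10, from 7, 136 and 126 fragments. WT was again lowest, but here ins2 was the highest library. The ratio of *Ccl3* to WT was 8.18 in ins2 (3.13 to 30.8) and 10.1 in del10 (3.91 to 37.9). That of *Ccl4* was 5.97 in ins2 (2.83 to 15.2) and 4.39 in del10 (2.06 to 11.1). Between the knock-in libraries, the ratio of del10 to ins2 was 1.24 for *Ccl3* (0.966 to 1.59) and 0.734 for *Ccl4* (0.569 to 0.938).

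*Cxcl2* encodes a chemokine that attracts neutrophils in mice. Its level was 0 in WT, 31.9 normalized counts in ins2 and 392 in del10, from 0, 2 and 24 fragments. The del10 library stood above both others. It was 12.3-fold higher in del10 than in ins2 (2.35 to 82.6), the 1 member with an interval beyond 2-fold between the knock-in libraries. The ratios to WT could not be placed as well: on fragments they start at 1.46 in del10 and at 0.0579 in ins2, whereas on the floor of 3 reads they are at least 119 and 9.69.

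*Tnf* and *Il1b* encode the cytokines that start many inflammatory responses, and both rested on few fragments in all 3 libraries. *Tnf* had 150 normalized counts in WT (16.2 to 485), 105 in ins2 (33.6 to 241) and 46.9 in del10 (10.1 to 143), from 2, 5 and 3 fragments. Its order is the reverse of that of *Csf1*, but the 3 intervals overlap. The ratio of *Tnf* to WT was 0.706 in ins2 (0.126 to 8.09) and 0.314 in del10 (0.0418 to 4.36), and the ratio of del10 to ins2 was 0.445 (0.0735 to 2.43). *Il1b* had 0 in WT, 18.7 in ins2 and 53.0 in del10, from 0, 1 and 3 fragments. Differences in *Tnf* and *Il1b* were not detectable on so few fragments, since each of their intervals on fragments includes 1. The ratio of del10 to ins2 for *Il1b* was 2.83 (0.190 to 124).

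Per kb of exon, which allows levels of different genes to be compared, the CC chemokines *Ccl4* and *Ccl3* led in the knock-in libraries. *Ccl4* had 711 normalized counts per kb in WT, against 4249 in ins2 and 3120 in del10, and *Ccl3* had 353, 2889 and 3582. *Csf1* followed with 380, 1018 and 1845, then *Hgf* with 0, 434 and 488 and *Ptgs2* with 0, 251 and 324. *Tnf* (91.2, 64.4 and 28.6), *Cxcl2* (0, 17.2 and 211) and *Il1b* (0, 13.8 and 39.1) were the lowest in both knock-in libraries. In WT, *Ccl4* was first, *Csf1* and *Ccl3* came next, and of the genes with reads *Tnf* was last.

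**Figure D2:**
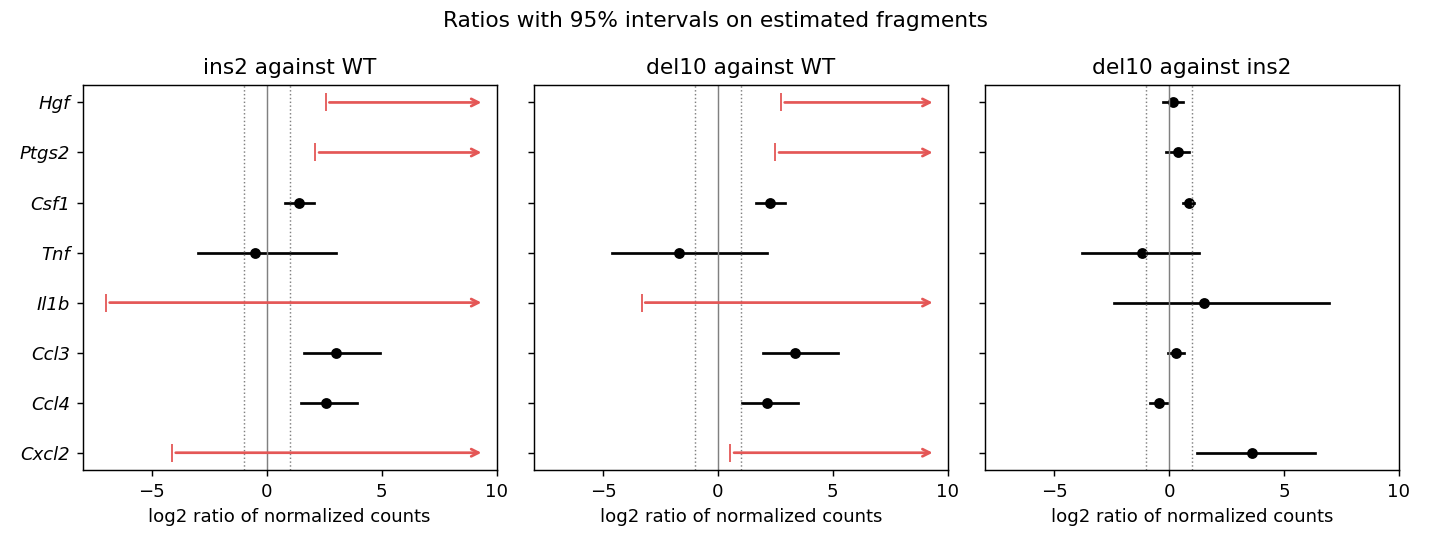
Log2 ratios of normalized counts (horizontal axes) for the 8 mediators in the comparisons ins2 against WT, del10 against WT and del10 against ins2. Points are ratios with 95% exact binomial intervals on estimated fragments, red arrows run from the lower limit for genes at 0 in WT, and dotted lines mark 2-fold. The lower limits against WT lie above 2-fold for *Hgf*, *Ptgs2*, *Ccl3* and *Ccl4* in both comparisons, and in the comparison of del10 with ins2 *Cxcl2* alone lies beyond 2-fold.

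Counted over the 8 genes, 7 were over 2-fold higher and 1 over 2-fold lower in del10 than in WT, beside 30.2% higher and 15.5% lower of the 14145 genes with reads. In ins2 against WT, 7 were higher and 1 was within 2-fold, beside 28.7% higher and 15.7% lower. The interval on fragments lay beyond 2-fold for 5 genes in del10 and for 4 in ins2, where *Csf1* had a lower limit of 1.73. In del10 against ins2, *Il1b* and *Cxcl2* were over 2-fold higher, *Tnf* over 2-fold lower and 5 within 2-fold, beside 15.4% higher and 14.0% lower of all genes with reads. The median log2 ratio of the 8 genes was 4.55 in del10 against WT, 3.66 in ins2 against WT and 0.34 in del10 against ins2, beside 0.15, 0.10 and 0.01 over all genes with reads. The medians against WT depend on how the 4 genes at 0 in WT are treated: with those zeros set to 3 reads they were 3.49 in del10 and 2.76 in ins2, and with a pseudocount of 10 they were 2.98 and 2.31. Since the genes were chosen with these ratios known, nothing is read from the counts or medians. Of the 8 genes, 5 (*Hgf*, *Ptgs2*, *Csf1*, *Ccl3* and *Ccl4*) belong to the main set, and *Tnf*, *Il1b* and *Cxcl2* fall below it.

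The neighbours of the chemokine genes had levels that were partly alike. On chromosome 11, *Ccl9* and *Ccl6*, which lie before *Ccl3* and encode chemokines of mouse myeloid cells, were also lowest in WT. *Ccl9* had 238 normalized counts in WT, against 3171 in ins2 and 2413 in del10, and *Ccl6* had 200, 1917 and 1950. The ratio of del10 to WT was 10.2 for *Ccl9* (3.44 to 33.4) and 9.74 for *Ccl6* (3.25 to 47.8). *Ccl5*, a chemokine of T and NK cells that lies before them, had 597, 1665 and 778, so that ins2 was its highest library and its ratio of del10 to WT was 1.30 (0.629 to 3.0). Thus *Ccl9*, *Ccl6*, *Ccl3* and *Ccl4* were all far lower in WT than in either knock-in library, and *Ccl5* was near its WT level in del10.

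On chromosome 5, *Cxcl2* had the most normalized counts of its cluster in del10, on a scale that is not per length. *Cxcl1*, its nearest neighbour and like it a neutrophil attractant, and *Cxcl15* were at 0 in all 3 libraries, and *Cxcl3* had 0, 0 and 19.9. *Cxcl5* had 1.10, 18.7 and 0. The platelet chemokine genes *Ppbp* (161, 84.6 and 13.2) and *Pf4* (67.1, 23.6 and 96.8) had no common order. On chromosome 17, *Tnf* lies between both lymphotoxin genes, whose products belong to its family: *Ltb* had 720, 753 and 460 normalized counts in WT, ins2 and del10, and *Lta* had 0, 0 and 46.9. *Ltb* and *Tnf* were both lowest in del10, but the ratio of *Ltb* to WT had an interval that includes 1 (0.640, 0.298 to 1.38). Outside these clusters, *Cxcl12*, the chemokine that retains stem cells in the marrow, had 347, 611 and 332, the interferon-induced *Cxcl10* had 53.9, 77.2 and 196, and *Ccl25*, a thymus and gut chemokine, had 0, 0 and 35.6. Of the 15 listed CC ligands beside *Ccl3* and *Ccl4*, 9 were at 0 in all 3 libraries.

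**Figure D3:**
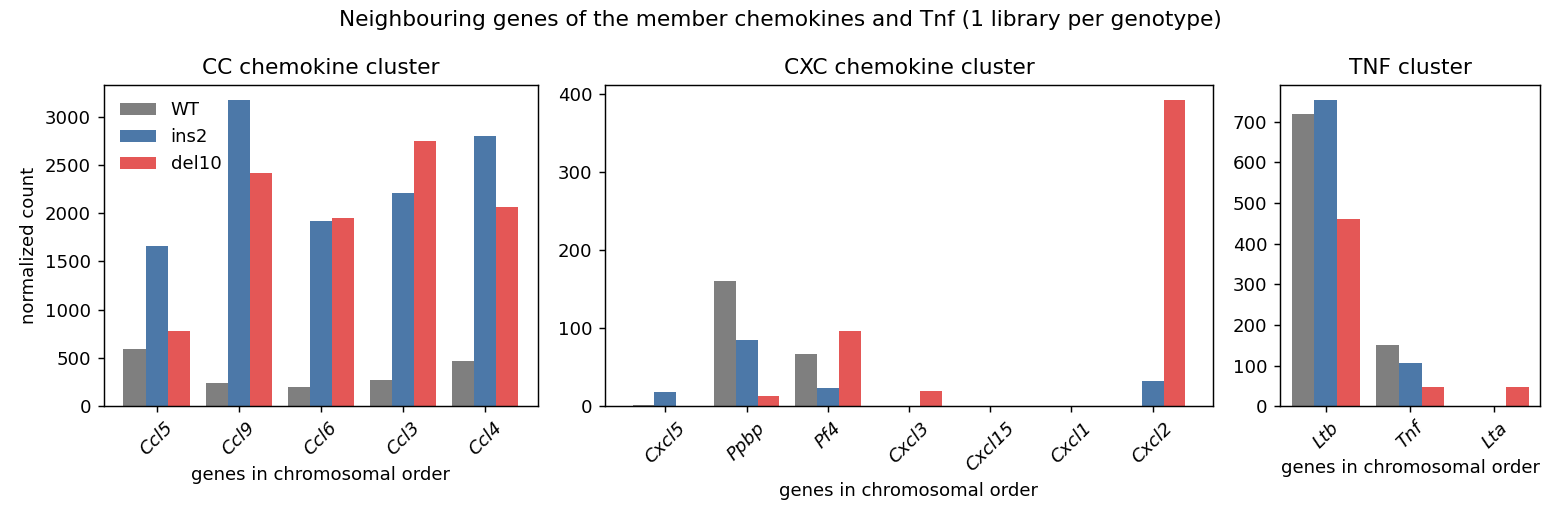
Normalized counts (vertical axes, each from 0) of the genes in the CC chemokine cluster on chromosome 11, the CXC chemokine cluster on chromosome 5 and the TNF cluster on chromosome 17, in chromosomal order with even spacing. Bars are the WT, ins2 and del10 libraries, 1 per genotype and without error bars. *Ccl9*, *Ccl6*, *Ccl3* and *Ccl4* have low WT bars of 200 to 470, and *Cxcl2* in del10 has the tallest bar of its cluster at 392.

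Receptors and other partners of the mediators were described from 9 lists of 114 genes, written from general knowledge of the pathways; 111 genes were in the table, 91 had reads and 47 belonged to the main set. Of these 47, 20 were over 2-fold higher and 5 lower in del10 than in WT, beside 15.3% and 10.2% of the main set. In ins2, 15 were higher and 4 lower than in WT, beside 15.7% and 10.7%. In del10 against ins2, 3 were higher and 5 lower, beside 3.59% and 4.03%. The lists were written with earlier results of these data known. A gene at 0 in WT, such as *Ccr1*, enters the main set only through its knock-in levels. The counts are therefore a description, and nothing is read from their distance to those shares.

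Receptors of the chemokines differed in their listed levels. *Ccr1*, the gene of a receptor for CCL3, was at 0 in WT and had 458 normalized counts in ins2 and 546 in del10. On fragments its ratio to WT started at 1.69 in ins2 and at 2.12 in del10. *Cxcr2*, the receptor gene for CXCL2, had 199, 606 and 618, and its ratio to WT included 1 in both knock-in libraries (0.923 to 15.3 and 0.977 to 15.6). *Ccr3*, the eotaxin receptor gene, had 72.6, 32.5 and 65.2. *Ccr1* thus had the pattern of *Hgf* and *Ptgs2*, at 0 in WT and alike in both knock-in libraries, and *Cxcr2* and *Ccr3* had reads in WT. On fragments, a gene at 0 in WT has an upper limit of 247 normalized counts, above the WT levels of *Cxcr2* and *Ccr3*. A difference between these receptors in WT was therefore not resolved.

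*Met*, the gene of the HGF receptor, was low, with 106 normalized counts in WT, against 175 in ins2 and 78.4 in del10, and all of its intervals include 1. *St14*, whose product (matriptase) activates HGF, had 0, 296 and 184, and *Spint2*, an inhibitor of HGF activators, had 176, 527 and 405. On fragments the ratio of *St14* to WT started at 1.02 in ins2 and at 0.610 in del10, and both intervals of *Spint2* included 1. *Sdc1* (syndecan 1), a cell surface proteoglycan that binds HGF and marks plasma cells, went the other way, with 1279, 444 and 248 and a ratio of del10 to WT of 0.194 (0.0907 to 0.398). *Csf1r*, the gene of the CSF1 receptor, was at 0 in WT and had 316 in ins2 and 154 in del10. On fragments its ratio to WT started at 1.11 in ins2 and at 0.480 in del10, where it includes 1. While *Csf1* was highest in del10, *Csf1r* was highest in ins2, though its ratio of del10 to ins2 includes 1 (0.487, 0.183 to 1.15). *Csf2ra*, which encodes a receptor chain for GM-CSF, had 357, 292 and 313, the G-CSF receptor gene *Csf3r* had 74.9, 173 and 314, and *Csf2* (GM-CSF) had 27.5, 47.2 and 0. In the main set, 1 of the 2 genes of the HGF list was over 2-fold higher and 1 lower in each knock-in library than in WT, and the 1 gene of the CSF1 list was within 2-fold.

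Of the genes beside *Ptgs2* in prostaglandin biology, *Ptgs1*, the constitutive cyclooxygenase, was low with 99.0 normalized counts in WT, against 69.9 in ins2 and 189 in del10. *Pla2g4a*, whose product frees arachidonic acid for both cyclooxygenases, had 146, 92.5 and 508, and del10 was high. Its ratio of del10 to ins2 was 5.49 (2.16 to 23.8). *Ptges3*, a co-chaperone also described as a prostaglandin E synthase, had 866, 1617 and 1644, and *Ptger4*, a prostaglandin E2 receptor gene, had 763, 736 and 1022. *Abcc4*, a transporter that exports prostaglandins, had 190, 535 and 713. *Ptges*, the inducible prostaglandin E synthase gene, was at 0 in all 3 libraries. In the main set, 2 of the 4 genes of this list were over 2-fold higher in del10 than in WT and 1 in ins2.

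Both TNF receptor genes had their lowest listed level in WT. *Tnfrsf1a* had 128 normalized counts in WT, against 456 in ins2 and 549 in del10, and *Tnfrsf1b* had 276, 599 and 709. The ratio of del10 to WT was 4.30 (1.06 to 35.5) for *Tnfrsf1a* and 2.57 (0.973 to 10.2) for *Tnfrsf1b*. For ins2 to WT, the interval of each included 1 (0.833 to 29.7 and 0.784 to 8.75). *Adam17*, the sheddase that releases TNF from the cell surface, had 979, 652 and 1316. The listed order of *Tnf* itself differed from that of its receptors, but the order of *Tnf* was not resolved on its few fragments. That of the receptors was not fully resolved either. *Tnfaip3* (A20), an inhibitor of NF-kappaB that TNF induces, had the most normalized counts of the list, with 12226, 18701 and 28014 and a ratio of del10 to WT of 2.29 (1.97 to 2.69). In the main set, 3 of the 6 genes of this list were over 2-fold higher in del10 than in WT and 2 in ins2, and 0 were lower.

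For interleukin 1, the inflammasome gene *Nlrp3*, whose product leads to the cleavage of pro-interleukin 1 beta, had 1105 normalized counts in WT, against 2149 in ins2 and 4911 in del10. Its order was that of *Csf1*, with a ratio to WT of 4.45 in del10 (2.77 to 8.10) and of 1.95 in ins2 (1.18 to 3.63). *Il1r1*, the signaling receptor gene, had 64.9, 167 and 156, and the decoy receptor gene *Il1r2* had 0, 78.7 and 2.76. The receptor kinase gene *Irak1* had 571, 1109 and 1551, and *Irak3*, an inhibitory member of its family, had 324, 565 and 788. *Tollip*, an adaptor protein that dampens the pathway, had 632, 873 and 849. In the main set, 5 of 11 genes of this list were over 2-fold higher and 1 lower in del10 than in WT, and 2 were higher and 1 lower in ins2.

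**Figure D4:**
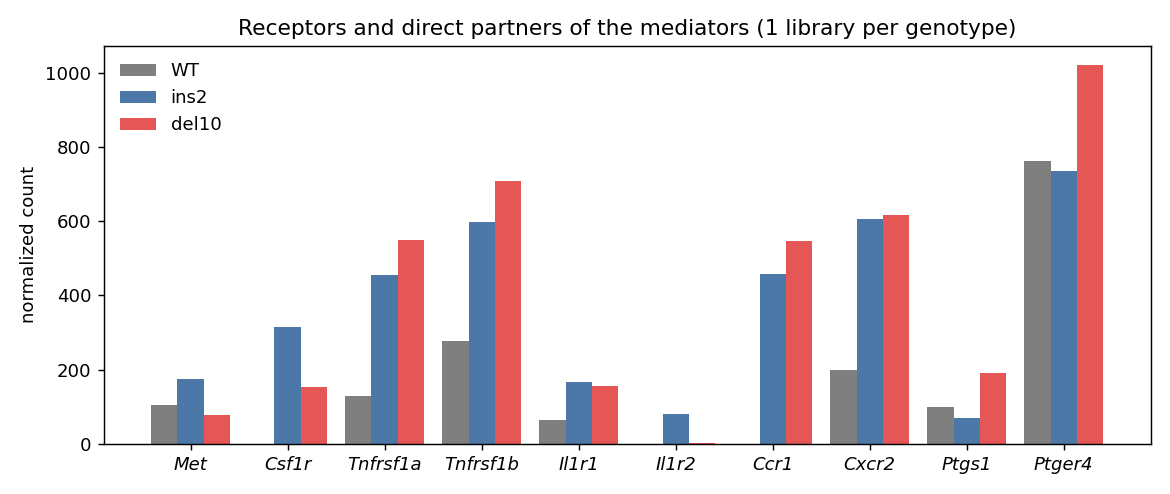
Normalized counts (vertical axis, from 0) of 10 receptors and direct partners of the mediators in the WT, ins2 and del10 libraries, 1 per genotype and without error bars. *Ccr1*, *Csf1r* and *Il1r2* have no WT bar, and the tallest bar is that of *Ptger4* in del10 at 1022.

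Among 20 targets and regulators of NF-kappaB and the primary response, 16 were in the main set, of which 5 were over 2-fold higher and 3 lower in del10 than in WT, beside 15.3% and 10.2% of the main set, and 4 and 2 in ins2, beside 15.7% and 10.7%. The 4 with the most normalized counts were all highest in del10. *Dusp1*, a phosphatase that turns off MAP kinases, had 4579 normalized counts in WT, against 6759 in ins2 and 13515 in del10, and its ratio of del10 to WT was 2.95 (2.31 to 3.85). *Zfp36*, which destabilizes the mRNA of *Tnf* and other cytokines, had a ratio of 2.38 (1.88 to 3.04), and *Nfkbiz* of 2.08 (1.65 to 2.66). *Nfkbia*, the inhibitor that NF-kappaB induces, had a ratio of 1.57 (1.18 to 2.09). The median log2 ratio of the 16 genes was 0.13 in del10 against WT, beside 0.04 over the main set.

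Some lists of cell type markers had the order of the mediators in their summed levels, and others did not. The summed level of the 8 mediators was 2478 normalized counts in WT, against 12045 in ins2 and 16131 in del10. That of 12 basophil and mast cell genes was 2298, 26573 and 36314. Of the 9 with reads, 8 were over 2-fold higher in del10 than in WT, as were 9 in ins2, beside 30.2% and 28.7% of all genes with reads. *Prss34* and *Mcpt8*, basophil proteases, had 785, 11103 and 15962 and 203, 3678 and 6320, whereas *Ms4a2*, *Tpsb2* and *Tpsab1* were at 0 in all 3 libraries. The summed LSK markers had the same order (WT, ins2, del10). The part of either list in the levels of the mediators was not tested.

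The summed level of 15 of the 16 monocyte and macrophage markers was 2323 in WT, 6558 in ins2 and 2913 in del10, with *Adgre1* not analysed here. *Csf1r*, *Cd68*, *Cd14*, *Cx3cr1*, *Fcgr1*, *C1qa* and *C1qc* were at 0 in WT, *Cd14*, *Fcgr1* and *Vcan* in ins2 and *Fcgr1* in del10. This list was highest in ins2, where *Ccl4* was also highest. Of its 14 genes with reads, 10 were over 2-fold lower in del10 than in ins2, beside 14.0% of all genes with reads. Neutrophil markers summed to 1709, 2341 and 3719, with *S100a8*, *Ltf*, *Camp*, *Ngp*, *Cebpe*, *Ly6g* and *Fcnb* at 0 in all 3 libraries. *Mpo* alone had 1034, 1581 and 2972, while *Elane* had 418, 104 and 129. Of the 5 neutrophil genes with reads, 2 were over 2-fold higher and 2 lower than in WT in both knock-in libraries. The shares of all genes with reads were 30.2% and 15.5% in del10, and 28.7% and 15.7% in ins2. T and NK cell markers summed to 6083, 15902 and 6164, and *Ccl5* had the same highest library. Megakaryocyte markers summed to 1761, 3272 and 4929, of which *Itga2b* alone had 987, 2775 and 4286. Of these 8 genes, 3 were over 2-fold higher and 2 lower than in WT in both knock-in libraries, beside the same shares. The lists highest in WT were B lineage markers, with 63593, 16901 and 15097, and stroma and endothelium markers, with 10706, 6272 and 4528. Of the 11 stroma and endothelium genes, 4 were over 2-fold higher and 5 lower in del10 than in WT, beside 30.2% and 15.5%. The part of these lists in the levels of the mediators was not tested.

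**Figure D5:**
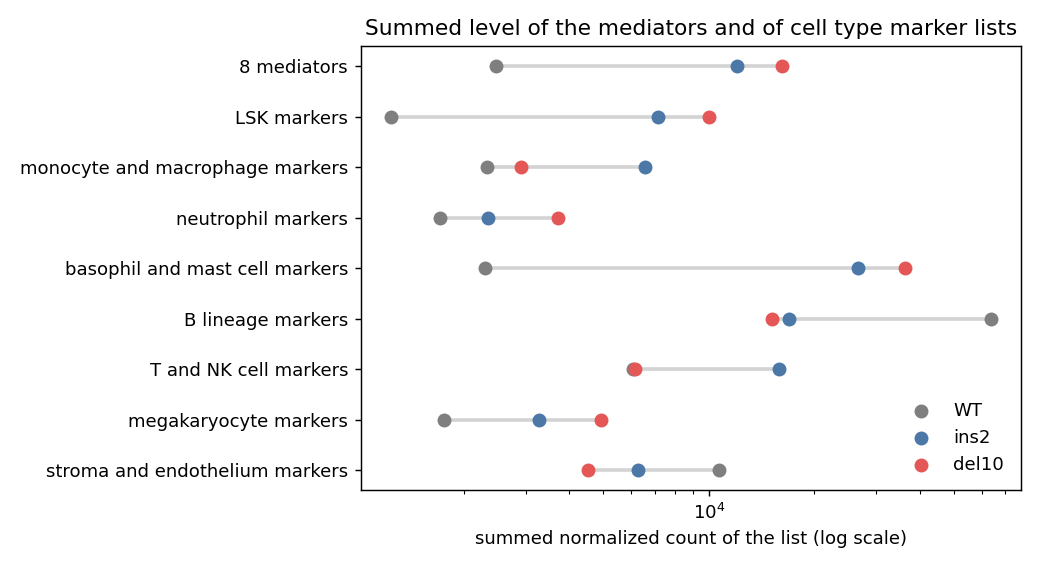
Summed normalized counts (horizontal log axis) of the 8 mediators and of 8 lists of cell type markers; points are the WT, ins2 and del10 libraries, 1 per genotype, joined by a grey line. The mediators run from 2478 in WT to 16131 in del10, the basophil and mast cell markers from 2298 to 36314, and the B lineage markers run the other way, from 63593 in WT to 15097 in del10.

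The mediators also varied among themselves. Over the 3 libraries, the root mean square distance of a gene's centred log2 levels from those of the median of the 8 genes was 0.99 for *Il1b*, 1.35 for *Cxcl2* and 1.63 for *Ptgs2*, and it was largest for *Csf1* (2.37) and *Tnf* (3.78). *Csf1* had reads in WT and *Tnf* had its highest level there, although the order of *Tnf* was not resolved on its few fragments. Of the other genes of the main set, *Lphn2* was nearest to the median pattern (distance 0.33), with 2.95 normalized counts in WT, against 516 in ins2 and 869 in del10. *Smyd3* (0.44), 1600014C10Rik (0.53), *Ruvbl1* (0.56) and *Necap1* (0.71) followed, each with under 8 normalized counts in WT. With 3 libraries, a likeness of this kind describes the order and size of 3 values only.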

How the data were processed

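LSK cells of 3 genotypes were profiled in 3 libraries, 1 per genotype. The libraries were prepared with a directional kit after ribosomal RNA depletion and sequenced from 1 end (75 bp). The authors trimmed reads with Trimmomatic 0.32, aligned them to mm10 with TopHat2 2.1.1 and Bowtie2 2.2.3, and counted reads of RefSeq genes. The submitters' processing notes also name bcl2fastq 2.20. The sources used here do not say whether duplicates were removed. The authors deposited an estimated count per gene, which need not be whole, and a log2 value after TMM scaling.

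From these, counts were multiplied by the factor behind the deposited log2 values (1.10, 0.984 and 1.02 in WT, ins2 and del10), which gave those values to within 1.39975e-06. Ratios were taken on log2(normalized count + 1). Exact intervals (95%) used reads and estimated fragments, whose reads per fragment were the commonest low read count between 5 and 150 reads after smoothing over 5 counts to each side. A gene at 0 had a floor of 3 reads. Counts were rounded to whole numbers for the intervals. Totals of 9823095 to 11111698 reads set the precision of reads.

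No test across samples was possible with 1 library per genotype. The members and lists were chosen with earlier results of these data known. Named genes were the members, the 4 most abundant genes of each partner list, 11 direct partners and the 5 genes nearest in pattern, of which 1 is not reported here. *Ptges*, the neighbours in the gene clusters and the markers were named beyond this rule. Exon lengths came from GENCODE vM21 and promoters from RefSeq (GRCm38.p6). Alternatives were other pseudocounts (0.5 and 10), scalings, filters and the floor for zeros. SciPy 1.17.1, pandas 2.3.3 and NumPy 2.4.6 under Python 3.11.15 were used, with matplotlib 3.10.9 for figures. The steps were also tested on simulated data.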

Additional observations from a re-analysis of the deposited data

Results flagged for a closer look

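Among the partner genes named for their level or their direct role, 9 of those described lay on opposite sides of their WT level in ins2 and del10. The difference was not tested, since each genotype has 1 library. Genes above WT in ins2 and below it in del10 were *Met* (log2 ratio of del10 to ins2 -1.15), *Csf2* (-5.59, with 0 in del10 and 47.2 normalized counts in ins2), *Ltb* (-0.71) and *Cxcl12* (-0.88). Genes below WT in ins2 and above it in del10 were *Ptger4* (0.47), *Pla2g4a* (2.44), *Adam17* (1.01), *Pf4* (1.99) and *Ptgs1* (1.43). *Cxcl5*, named as a neighbour of *Cxcl2*, also lay on opposite sides (log2 ratio of del10 to ins2 -4.30), at 1.10, 18.7 and 0 normalized counts, about 1 fragment or less in each library. The interval on fragments for the ratio of del10 to ins2 left out 1 for *Pla2g4a* (2.16 to 23.8), *Adam17* (1.31 to 3.11) and *Cxcl12* (0.283 to 0.957). In the ratios to WT, the interval of each of the 9 genes included 1 or could not be computed. The side of WT on which they lay was therefore not resolved on the estimated fragments.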

How the results depend on the processing

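Under other pseudocounts, scalings and the floor for zeros, 0 ratios of the mediators reversed. Of the alternatives for ratios whose interval on fragments has an upper end, 80 of 80 stayed inside it. This says little, since these settings could hardly move such ratios. The largest shift of log2 ratios by another scaling was -0.047, in del10 against ins2, and the floor left these ratios unchanged. The levels also stayed inside their intervals (24 of 24), but they were varied only by the scaling without *Rn45s*, and a level of 0 cannot move under it. The other 40 alternatives for ratios concern genes at 0 in WT, whose interval has no upper end, so staying inside it says little as well. Their values moved with the pseudocount: at 10 in place of 1, the log2 ratio of del10 to WT for *Hgf* was 7.41 in place of 10.73, and that of ins2 to WT for *Il1b* was 1.52 in place of 4.30. Counting as changed only genes with an interval beyond 2-fold, 4 in place of 7 mediators were higher in ins2 than in WT, 1 in place of 2 higher and 0 in place of 1 lower in del10 than in ins2, and 0 in place of 1 lower in del10 than in WT. Within the main set, 0 mediators were higher or lower in del10 than in ins2, and 0 were lower in del10 than in WT. With ins2 in place of WT as the reference, a choice made after seeing the data, 2 in place of 7 mediators were higher in del10. That is the comparison of del10 with ins2 given above, and it is not a check on the count against WT. With no filter on low values, 91 partner genes with reads were counted in place of 47. Those higher and lower than in WT numbered 42 and 11 in place of 20 and 5 in del10, beside 30.2% and 15.5% of all genes with reads. In ins2 they numbered 34 and 8 in place of 15 and 4, beside 28.7% and 15.7%. In del10 against ins2 they numbered 16 and 22 in place of 3 and 5, beside 15.4% and 14.0%. The wider set tests more genes of few fragments. No paired analysis was possible because each genotype has 1 library and the labels give no replicate numbers. The number of estimated fragments limits *Tnf*, *Il1b* and, in ins2, *Cxcl2*, which rest on 5 or fewer fragments per library.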
